A study of Mus musculus with 6 samples.

Results

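The 10 myeloid C-type lectin receptor genes Clec7a, Clec9a, Clec4d, Clec4e, Clec4n, Clec5a, Clec12a, Clec4a1, Clec4a2 and Clec4a3 were followed in RNA sequencing libraries of mouse brain microglia. Their rows were found by Ensembl identifier, and 10 of the 55401 genes in the count matrix were taken. All 10 passed the filter on low counts and were among 19554 genes tested. The libraries came from untreated MRL/lpr mice, which develop lupus and carry the lpr mutation of Fas, and from untreated MRL/mpj mice, the matching strain without that mutation. There were 3 libraries of each strain, all from mice 6 weeks old. According to the methods, the cells were taken from enzyme-digested brain on a Percoll gradient and selected on magnetic beads for CD11b, an integrin chain that monocytes, neutrophils and border macrophages share with microglia. The study counts its sequencing replicates in mice, so each library was taken as a separate mouse, although the labels do not say so.

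C-type lectin receptors are membrane proteins with which phagocytes bind sugars, lipids and material from dead cells. Some carry a tyrosine motif (hemITAM) in their own tail or borrow one from the adaptor chains FcRγ (gene Fcer1g) or DAP12 (gene Tyrobp). These recruit the kinase SYK, which acts through CARD9, BCL10 and MALT1 on NF-κB and so on cytokine genes. Others carry an inhibitory motif (ITIM) that recruits the phosphatases SHP-1 and SHP-2. In the brain, Clec7a is best known as a gene of microglia that gather around plaques and degenerating myelin.

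Each library held a total of 45481609 to 48199739 counts (MRL/lpr) or 47826322 to 49846634 counts (MRL/mpj). The 10 genes on the list of homeostatic microglia markers summed to between 13935 and 16399 CPM (the count scaled to library size) in MRL/lpr and to between 18053 and 18567 CPM in MRL/mpj. MRL/lpr replicate 2 stood apart in Cx3cr1, a chemokine receptor on that list, with 132706 counts against 10645 and 10334 counts in the other MRL/lpr replicates. The share of mitochondrial genes was 3.06% to 3.49% in MRL/lpr and 5.84% to 6.38% in MRL/mpj, and in MRL/lpr replicate 3 a single gene took 6.38% of all counts. RNA of other cells was present as well. The 9 T cell markers summed to between 21.5 and 27.4 CPM in the MRL/lpr libraries and to between 4.81 and 5.57 CPM in those of MRL/mpj. The 14 monocyte markers summed to between 1898 and 2196 CPM against between 1342 and 1408 CPM. Most of that sum came from Nr4a1, at means of 1407 against 703 CPM, and Fn1, at 531 against 497 CPM. The next highest mean was 85.4 CPM, for Ace in MRL/mpj, so the sum does not describe the monocyte list as a whole. In such bulk samples, a change in the number of cells of a type and a change in RNA per cell cannot be told apart.

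In MRL/lpr, 1 of the 10 receptor genes was higher and 1 was lower when the quasi-likelihood test of edgeR was applied with a limit of 0.05 on the adjusted p-value. Clec7a rose 3.43-fold and Clec4a3 fell to 0.789 of its MRL/mpj level, while the other 8 did not pass the test. Among all genes tested, 11.1% were higher, 9.06% were lower and 20.2% were called in either direction by the same rule, so the share of receptor genes called was near that of genes in general. Over all genes this gave 2178 higher and 1772 lower, and scaling without TMM, by library size alone, gave 1634 higher and 2790 lower. Adding a minimum of 1 on the log2 scale in either direction left Clec7a alone, against 8.34% of all genes tested, 4.67% higher and 3.66% lower. In CPM the strains did not overlap for 7 of the 10 genes, 5 higher and 2 lower, as for 39.0% of all genes tested. The log2 fold change was positive for 7 of the genes and negative for 3. Its median over the 10 was 0.51, and over all genes tested it was -0.01. Scaled by library size alone, these medians were 0.39 and -0.13.

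All 10 genes lie on chromosome 6 (GRCm38). The Clec4 genes occupy 368 kb at chr6:122921848-123289870, Clec12a, Clec9a and Clec7a occupy 130 kb at chr6:129342691-129472779, and Clec5a stands alone at chr6:40574894-40585821. RefSeq (GRCm38.p6, the C57BL/6J reference and not MRL sequence) gave promoter windows for 9 of the 10 genes, and Clec4n had no entry. The 250 bases before a start site are shown for Clec7a and Clec4a3, the 2 genes that passed the test, in opposite directions. Capitals mark the core motif GAGGAA of PU.1, the factor that specifies macrophages and microglia, read on either strand. The Clec7a window is chr6:129472786-129473035 on the minus strand, and the Clec4a3 window is chr6:122952265-122952514 on the plus strand.
Clec7a: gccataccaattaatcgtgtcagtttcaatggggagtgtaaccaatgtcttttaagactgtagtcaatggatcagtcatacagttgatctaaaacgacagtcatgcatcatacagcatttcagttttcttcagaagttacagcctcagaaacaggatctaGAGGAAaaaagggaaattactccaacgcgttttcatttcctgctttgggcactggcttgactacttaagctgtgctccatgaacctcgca
Clec4a3: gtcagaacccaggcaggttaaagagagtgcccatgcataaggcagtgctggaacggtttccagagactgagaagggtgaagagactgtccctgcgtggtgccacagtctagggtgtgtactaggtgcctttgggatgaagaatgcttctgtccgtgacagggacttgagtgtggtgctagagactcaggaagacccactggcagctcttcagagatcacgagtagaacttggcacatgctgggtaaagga

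The Clec7a window held the PU.1 core from 90 to 85 bases before the start, and the Clec4a3 window shown held none. A second start of Clec4a3, further into the gene, had a core from 50 to 45 bases before it. In the same 250 bases, 7 of the 9 genes with a window held GAGGAA or its reverse complement, against 23.3% of all 32851 promoter windows. The hits are matches of letters in short windows and were not tested as binding sites.

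**Figure D1:**
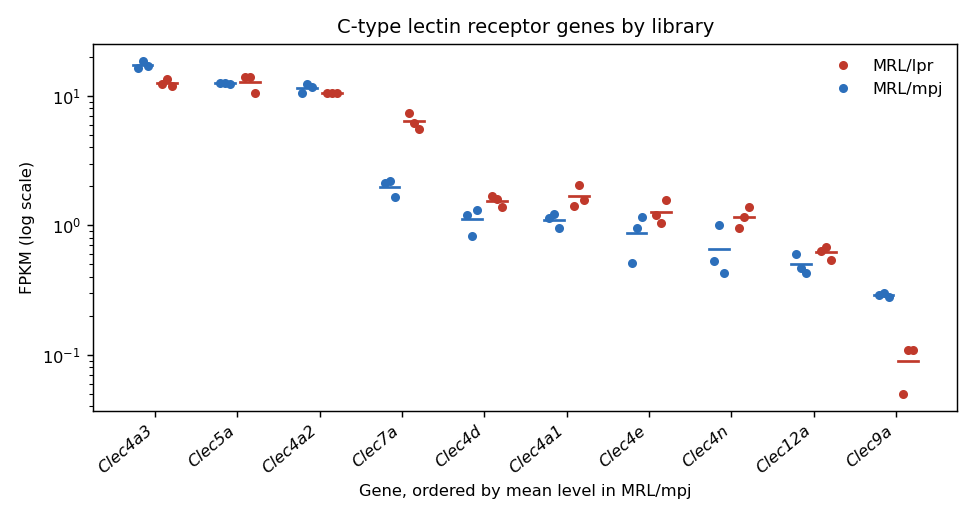
FPKM of each receptor gene (log axis) in the 3 MRL/mpj libraries (blue points) and the 3 MRL/lpr libraries (red points), with horizontal lines at the means and genes ordered by mean level in MRL/mpj. The red and blue points of Clec7a are well apart, at 5.51 to 7.36 against 1.66 to 2.21 FPKM, while Clec5a and Clec12a overlap.

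Levels were compared between genes on the deposited FPKM scale, which divides by gene length. In the MRL/mpj libraries Clec4a3 was the most abundant, at 17.4 ± 1.22 FPKM (SD, n = 3), followed by Clec5a at 12.5 ± 0.0651 and Clec4a2 at 11.5 ± 0.889 FPKM. Clec7a came next at 1.66 to 2.21 FPKM. These 4 genes did not overlap their neighbours in the order. Clec4d, Clec4a1, Clec4e, Clec4n and Clec12a followed, with means of at most 1.11 FPKM, and each overlapped the next. Clec9a was lowest, at 0.290 ± 0.0100 FPKM, and did not overlap Clec12a. In the MRL/lpr libraries the order of the 4 leading genes was Clec5a at 12.8, Clec4a3 at 12.6, Clec4a2 at 10.5 and Clec7a at 6.35 FPKM (means, n = 3), and the first pair overlapped. Clec4a1, Clec4d, Clec4e and Clec4n overlapped each neighbour there, at means between 1.68 and 1.17 FPKM, and Clec12a at 0.620 and Clec9a at 0.0900 FPKM stood below without overlap.

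The sum over the 10 genes was 48.7 ± 3.16 FPKM in MRL/lpr and 47.9 ± 2.39 FPKM in MRL/mpj (SD, n = 3), and the strains overlapped in the total. The make-up of that total was compared within each library, where the scaling between libraries cancels. Clec7a supplied 14.7%, 12.1% and 12.2% of the sum in the MRL/lpr libraries and 4.62%, 4.37% and 3.51% in the MRL/mpj libraries. Clec4a3 supplied 24.6%, 26.5% and 26.6% against 35.7%, 37.0% and 35.9%. The strains did not overlap for either gene, with p = 0.1 for each from a two-sided exact permutation test, the smallest value that 3 libraries against 3 allow. Clec5a supplied 26.2% ± 2.50 and 26.2% ± 1.33 (SD, n = 3), with p = 0.9 from the same exact test.

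**Figure D2:**
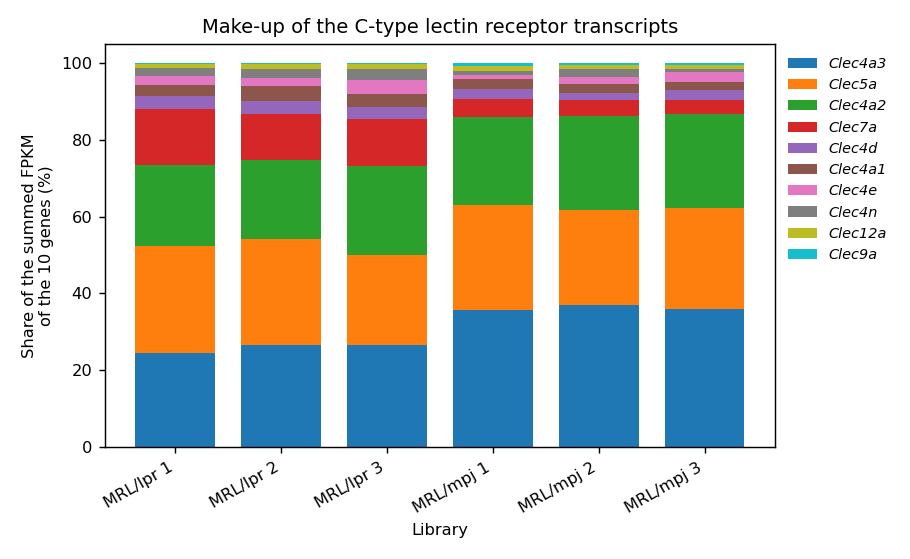
Share of the summed FPKM of the 10 receptor genes (%) taken by each gene, stacked to 100% for each of the 6 libraries. The Clec7a segment covers 12.1% to 14.7% in MRL/lpr and 3.51% to 4.62% in MRL/mpj, and the Clec4a3 segment is smaller in the MRL/lpr libraries.

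Clec7a (ENSMUSG00000079293, chr6:129461591-129472779) encodes Dectin-1, a receptor for β-glucans of fungi that signals to SYK through its own hemITAM. In GENCODE M21, Clec7a has the gene type polymorphic pseudogene, whereas the other receptor genes have the type protein coding. Whether Clec7a encodes an intact protein in MRL mice was not tested. It had 1048, 883 and 738 counts in the MRL/lpr replicates, against 312, 315 and 246 counts in those of MRL/mpj. Each MRL/lpr library was above every MRL/mpj library, as in 19.6% of all genes tested. The level was 19.6 ± 2.42 CPM against 5.70 ± 0.850 CPM (SD, n = 3). The log2 fold change was 1.78 with a 95% interval from 1.42 to 2.14, or from 2.67-fold to 4.41-fold, and edgeR gave an adjusted p of 6.05e-05. Clec7a passed the test in all 17 alternatives, with log2 fold changes between 1.29 and 1.85.

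The ratio of Clec7a to other receptor genes was also taken within each library. Clec7a to Clec5a in FPKM was 0.530, 0.439 and 0.524 in the MRL/lpr libraries and 0.169, 0.177 and 0.133 in the MRL/mpj libraries. Clec7a to Clec4a2 was 0.605 ± 0.0872 against 0.174 ± 0.0295 (SD, n = 3). Clec7a to Clec12a, which lies in the same stretch of the chromosome, was 10.3 ± 1.21 against 4.03 ± 0.603 (SD, n = 3). None of these ratios overlapped between the strains, and each gave p = 0.1 in the exact permutation test. All of them reuse the Clec7a values given above, so they are not separate evidence of its rise.

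Clec9a (ENSMUSG00000046080, chr6:129408862-129424763) encodes DNGR-1, a hemITAM receptor for actin filaments exposed on dead cells and a defining gene of type 1 conventional dendritic cells. It had 9, 19 and 19 counts in the MRL/lpr replicates, against 54, 53 and 52 counts in those of MRL/mpj. Every MRL/lpr library was below every MRL/mpj library, as in 19.4% of all genes tested. The log2 fold change was -1.56 (SE 0.52, 95% interval from -2.73 to -0.40), and the adjusted p of 0.0632 from edgeR did not pass. It passed in 5 of the 17 alternatives and in 0 of the 6 fits that left out a library. Of the other 10 markers of type 1 dendritic cells, 8 were tested, 2 were higher and 1 was lower. Among all genes tested, 11.1% were higher and 9.06% were lower. Itgae, an integrin of these cells and of resident T cells, rose by 1.42 on the log2 scale, and the adhesion gene Cadm1 fell by 1.91. The summed level of the 10 markers overlapped, at 684 to 895 CPM against 589 to 828 CPM. Most of that sum came from Irf8, at 516, 303 and 341 CPM against 230, 228 and 448 CPM, and Wdfy4, at means of 250 against 172 CPM. The sum therefore does not describe the list as a whole. Xcr1, the chemokine receptor that defines these cells, had 77, 110 and 33 counts against 23, 78 and 14 counts. Part of Clec9a overlaps Clec1b on the same strand, where reads cannot be assigned to 1 of them with certainty.

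Clec4d, Clec4e and Clec4n pair with FcRγ. Clec4e encodes Mincle and Clec4d encodes MCL, which bind mycobacterial glycolipid, and Clec4n encodes Dectin-2, which binds fungal mannan. Clec4d (ENSMUSG00000030144) had 146, 140 and 113 counts in the MRL/lpr replicates, against 108, 72 and 119 counts in those of MRL/mpj. Clec4e (ENSMUSG00000030142) had 325, 285 and 397 counts against 140, 257 and 327 counts. Clec4n (ENSMUSG00000023349) had 74, 91 and 100 counts against 42, 77 and 35 counts. After scaling, the MRL/lpr libraries of Clec4d and Clec4n lay above all MRL/mpj libraries, by a small margin, and those of Clec4e overlapped. On the FPKM scale Clec4n overlapped too. The log2 fold changes were 0.59 for Clec4d, 0.67 for Clec4e and 0.96 for Clec4n, with 95% intervals from -0.02 to 1.20, from -0.03 to 1.36 and from 0.06 to 1.86. None passed the test, edgeR giving adjusted p-values of 0.171, 0.174 and 0.131, and none passed in any of the 17 alternatives. All 3 intervals include increases of more than 1 on the log2 scale, so the test leaves the size of any change in these genes undecided. The 3 genes are also active in neutrophils and monocytes. The 13 neutrophil markers summed to between 1521 and 1705 CPM in MRL/lpr and to between 1481 and 1516 CPM in MRL/mpj. The largest part of that sum was Csf3r, at means of 783 against 867 CPM. The next highest mean was 242 CPM, for Ngp in MRL/lpr, so the sum does not describe the neutrophil list as a whole. In CPM, 8 of the markers lay above MRL/mpj without overlap, and only Csf3r lay below. By the edgeR test 4 markers rose and no marker fell. The part of neutrophils and monocytes in the values of Clec4d, Clec4e and Clec4n was not tested.

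Clec5a (ENSMUSG00000029915) encodes MDL-1, which binds dengue virus and signals through DAP12. It had 2876, 2922 and 2050 counts in the MRL/lpr replicates, against 2671, 2582 and 2674 counts in those of MRL/mpj. MRL/lpr replicate 3 was the lowest of the 6 libraries and the other MRL/lpr replicates were the highest. The log2 fold change was 0.15 (SE 0.10, adjusted p = 0.352 from edgeR, 95% interval from -0.08 to 0.38). Without MRL/lpr replicate 3 it was 0.26 and passed the test, with an adjusted p of 0.0225 from edgeR.

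Clec12a and Clec4a2 encode the ITIM receptors MICL, which senses uric acid crystals of dead cells, and DCIR. Clec12a (ENSMUSG00000053063) had 190, 206 and 152 counts in the MRL/lpr replicates, against 183, 140 and 134 counts in those of MRL/mpj. Clec4a2 (ENSMUSG00000030148) had 1665, 1661 and 1554 counts against 1712, 1939 and 1911 counts. Scaled values of Clec12a did not overlap, at 3.64 to 4.38 CPM against 2.58 to 3.56 CPM, but its FPKM values did. For Clec4a2 it was the reverse, with overlap in CPM and lower FPKM values in each MRL/lpr library. The log2 fold change was 0.43 for Clec12a (95% interval from -0.08 to 0.94) and -0.01 for Clec4a2 (95% interval from -0.21 to 0.19), edgeR giving adjusted p-values of 0.233 and 0.948. Neither passed in any alternative.

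Clec4a1 and Clec4a3 encode close relatives of DCIR. These genes and Clec4a2 arose by duplication, so the counting could have split reads of similar exons between them. Clec4a1 (ENSMUSG00000049037) had 119, 174 and 125 counts in the MRL/lpr replicates, against 99, 103 and 83 counts in those of MRL/mpj. Clec4a3 (ENSMUSG00000043832) had 882, 968 and 808 counts against 1202, 1336 and 1260 counts. The strains did not overlap for either gene, with Clec4a1 above and Clec4a3 below in the MRL/lpr libraries. Clec4a3 fell by 0.34 on the log2 scale (SE 0.10, adjusted p = 0.0408 from edgeR, 95% interval from -0.57 to -0.11). The call was lost in each of the 6 fits that left out a library, with adjusted p-values between 0.0610 and 0.157 from edgeR and log2 fold changes between -0.38 and -0.29, and also with no count filter (adjusted p = 0.0549 from edgeR). Clec4a1 had a log2 fold change of 0.72 (SE 0.27, adjusted p = 0.0913 from edgeR). Within libraries, Clec4a3 to Clec4a1 in FPKM was 7.62 ± 1.09 against 15.9 ± 1.80 (SD, n = 3), with no overlap and p = 0.1 in the exact permutation test.

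**Figure D3:**
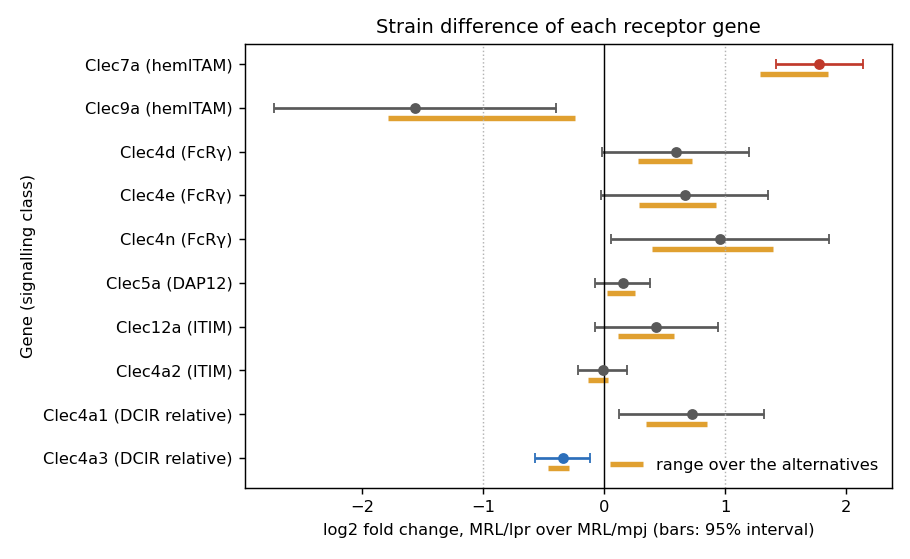
Log2 fold change of each receptor gene, MRL/lpr over MRL/mpj, with its 95% interval (horizontal bars), grouped by signalling class, and in orange the range over 17 alternatives. Red and blue points passed the test (Clec7a at 1.78 and Clec4a3 at -0.34), grey points did not, and dotted lines mark log2 fold changes of 1 and -1.

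The position of the genes was examined next, to see whether the chromosome around Clec7a moved with it. Within 500 kb of Clec12a, Clec9a and Clec7a, 21 other genes were tested, of which 3 were higher and none was lower, where 11.1% and 9.06% of all genes tested were called. The pseudogene BC064078, 1 of those 3, had 264, 275 and 246 counts against 36, 64 and 72 counts. It rose by 2.36 on the log2 scale (adjusted p = 0.000399 from edgeR). Of the 21, 11 have C-type lectin domains or the related natural killer receptor fold. Cd69, an activation marker of lymphocytes, had 626, 568 and 360 counts against 41, 4 and 50 counts, and rose by 4.20 on the log2 scale (SE 0.69, adjusted p = 0.00732 from edgeR). Klrc1, an inhibitory receptor of NK cells and CD8 T cells, had 42, 65 and 44 counts against 4, 0 and 8 counts, with an adjusted p of 0.0151 from edgeR. The T cell markers Cd8a and Cd3e rose in the same libraries, by 2.90 and 4.99 on the log2 scale, and their part in these values was not tested. Klrd1 and Klrk1, other natural killer receptor genes among the 11, did not pass. Klrd1 had 248, 207 and 114 counts against 266, 291 and 269 counts (log2 fold change -0.38, adjusted p = 0.354 from edgeR). Klrk1 had a log2 fold change of 0.98 (adjusted p = 0.144 from edgeR). The nearest genes to Clec7a did not pass the test. Olr1, an oxidized LDL receptor 12465 bases away, had 77, 62 and 44 counts against 21, 43 and 16 counts (adjusted p = 0.0938 from edgeR), and Clec1a had 88, 60 and 45 counts against 92, 119 and 139 counts (adjusted p = 0.185 from edgeR). Clec2d had 678, 654 and 475 counts against 720, 604 and 690 counts, with a log2 fold change of 0.01. Around the Clec4 genes, 11 other genes were tested, with 4 higher and none lower, and around Clec5a 5 were tested, with none higher and 1 lower. Of the 3 other lectin genes around the Clec4 genes, only Clec4b1 was tested, with at most 12 counts in any library. The median log2 fold change was 0.58 for the 21 genes, 0.40 around the Clec4 genes and -0.42 around Clec5a. Over all genes tested it was -0.01.

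Among 35 other genes of C-type lectin domain proteins, 27 were tested, MRL/lpr was higher in 3 and lower in 4. Over all genes tested, 11.1% were higher and 9.06% were lower. Their median log2 fold change was -0.31. Mrc2, a collagen receptor of the mannose receptor family, had 4271, 4302 and 5094 counts against 694, 851 and 726 counts and rose by 2.77 on the log2 scale (adjusted p = 2.38e-06 from edgeR). Mgl2, a galactose-type lectin of macrophages and dendritic cells, had 344, 312 and 307 counts against 182, 101 and 136 counts and rose by 1.38 (adjusted p = 0.00284 from edgeR). The remaining one was Cd69. Pla2r1, the phospholipase A2 receptor, fell by 1.57 on the log2 scale (adjusted p = 0.00347 from edgeR), and Cd93, Colec12 and the mannose receptor gene Mrc1 fell by 0.56, 0.89 and 0.39. Of the 8 genes not tested, Clec4f and Clec12b had 0 counts in all libraries, and the others had at most 27 counts in any library. The number of lower genes was 2 without MRL/lpr replicate 1, without MRL/mpj replicate 2 and without MRL/mpj replicate 3.

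The signalling chain behind the receptors was described with a list of 45 genes, all of which were tested. MRL/lpr was higher in 18 and lower in 1, where 11.1% and 9.06% of all genes tested were called. Their median log2 fold change was 0.35. Of the 3 adaptor genes, Tyrobp fell by 0.35 on the log2 scale (adjusted p = 0.0177 from edgeR), with 12391, 12628 and 12701 counts against 19223, 18628 and 16581 counts. Fcer1g had 6075, 6710 and 6467 counts against 6705, 6262 and 6348 counts and did not pass. The call of Tyrobp was lost without MRL/lpr replicate 1, without MRL/lpr replicate 2, without MRL/mpj replicate 1 and without MRL/mpj replicate 2, since the count of lower pathway genes was then 0.

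Of 11 genes at the SYK step, 3 were higher and none was lower. Syk itself rose by 0.38 on the log2 scale (adjusted p = 0.00163 from edgeR), and the protein kinase C gene Prkcd rose by 0.33. In the CARD9 complex, Traf6 rose by 0.58 (adjusted p = 0.0012 from edgeR), and Card9, Bcl10, Malt1 and Trim62 did not pass. Card9 itself had 6442, 6514 and 5290 counts against 6265, 6958 and 6803 counts. Of 8 NF-κB and NFAT genes, 6 were higher. Rel had 25998, 25768 and 19159 counts against 12938, 12869 and 14018 counts, the largest change of the 8. The others included Nfkb2, which rose by 0.99, and Relb, which rose by 0.84 on the log2 scale. Of 7 inhibitors, the adaptor Dok2 rose by 1.57, and the phosphatase genes Ptpn6 and Ptpn11 had log2 fold changes of -0.11 and -0.10 and did not pass. Of 11 genes known to be induced through this pathway, 7 were higher and none was lower. Il6 rose by 2.29, Il10 by 1.54 and Ptgs2 by 1.37 on the log2 scale, and Tnf rose 2.47-fold. Toll-like receptors and other inputs act on these genes too, and the counts do not separate their inputs.

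**Figure D4:**
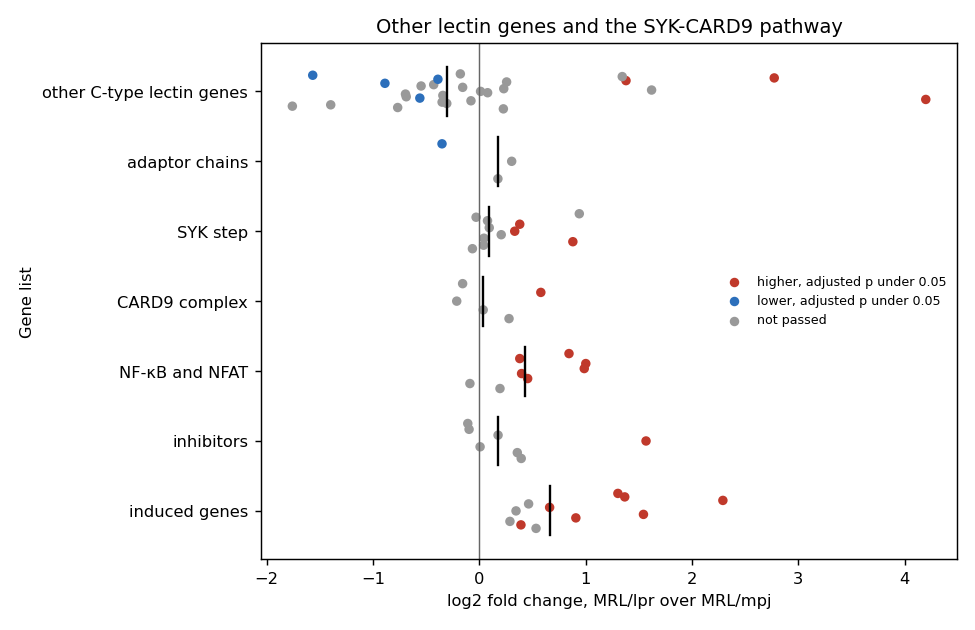
Log2 fold change, MRL/lpr over MRL/mpj, of each tested gene of the other C-type lectin genes and of 6 lists of the SYK-CARD9 pathway, with black lines at the medians. Red points were higher and blue points lower at an adjusted p-value under 0.05, and 7 of 11 induced genes are red while 8 of 11 genes at the SYK step are grey.

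Clec7a is also counted among disease-associated microglia genes, the set that microglia turn on around plaques. Of 15 other genes of that set, MRL/lpr was higher in 2 and lower in 7, with a median log2 fold change of -0.37. By the same rule, 11.1% of all genes tested were higher and 9.06% were lower. Itgax, Apoe, Cd9 and Cd63 fell by 1.72, 1.48, 1.21 and 1.13 on the log2 scale, and Ccl6 and Csf1 rose by 0.68 and 0.38. Of 10 homeostatic microglia markers, none was higher and 4 were lower, among them Fcrls, which fell by 1.76. Clec7a went in the direction opposite to most called genes of that set.

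Markers of other myeloid cells that carry these receptors moved as follows, where 11.1% of all genes tested were higher and 9.06% were lower. Of 14 monocyte markers, 6 were higher and 2 were lower. Plac8, F10 and Ms4a4c rose by 2.22, 3.36 and 3.05 on the log2 scale and Chil3 fell by 1.59, while Ly6c2 and Ccr2, which define classical monocytes, had log2 fold changes of 0.39 and -0.26 and did not pass. Of 11 border macrophage markers, 1 was higher and 3 were lower, and their sum was 477 to 518 CPM against 785 to 812 CPM. That sum was mainly Stab1, at means of 427 against 734 CPM, and the next highest mean was 26.6 CPM, for Mrc1 in MRL/mpj. Siglec1, a lectin of macrophages in interferon-exposed tissue, rose by 3.14, and Cbr2 and Stab1 fell by 1.68 and 0.78. Of 10 general dendritic cell markers, 9 were tested, 2 were higher and none was lower, with a sum of 677 to 790 CPM against 529 to 545 CPM. That sum was mainly Fscn1, at means of 674 against 501 CPM, and the next highest mean was 16.2 CPM, for Zbtb46 in MRL/lpr. None of the 8 B cell markers passed, 5 of which were tested, and Cr2 was at 0 in all libraries. No defining marker of monocytes, neutrophils, dendritic cells or border macrophages was at 0 in all 6 libraries, and the part of these cells in the rise of Clec7a was not tested.

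**Figure D5:**
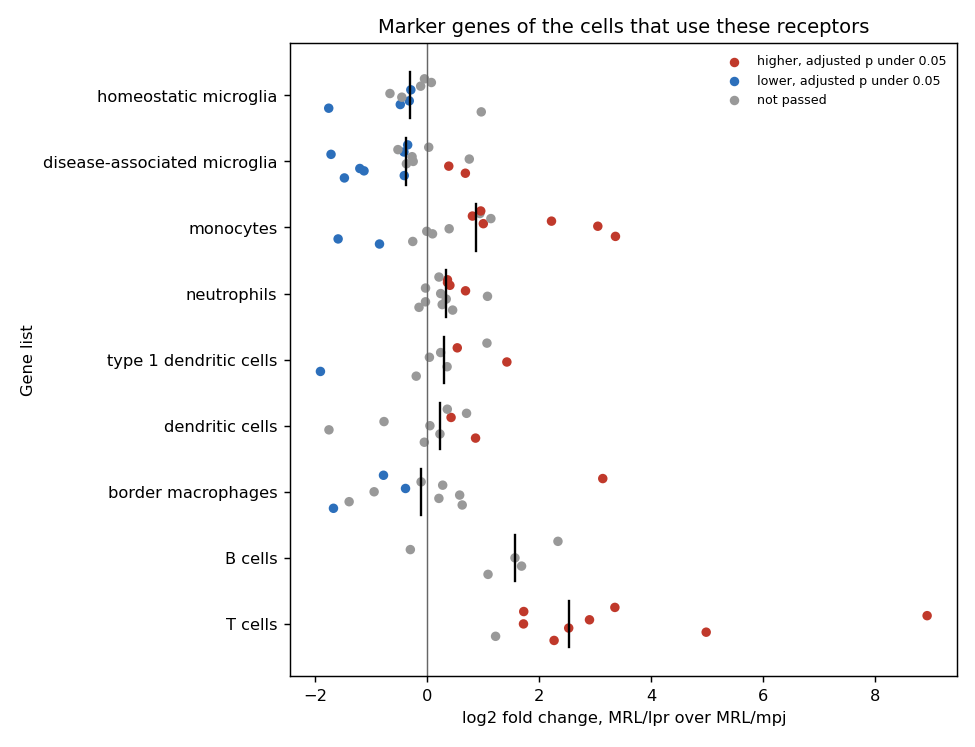
Log2 fold change, MRL/lpr over MRL/mpj, of each tested marker gene of 9 kinds of cell, with black lines at the medians. Red points were higher and blue points lower at an adjusted p-value under 0.05, and T cell markers lie furthest to the right, with 8 of 9 higher.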

How the data were processed

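Per the labels, RNA was depleted of ribosomal RNA and sequenced from strand-marking libraries, whereas the methods describe purified mRNA. The submitters' processing notes name cutadapt 1.9.3, HISAT2 2.0.4, Cufflinks, Cuffdiff 2.2.1 and GRCm38, and the counting tool and its strand setting are not given in the sources used here. The authors deposited a matrix of raw counts (whole numbers for each gene) and a file of FPKM values for each library, which scale by gene length and depth. Symbols and positions came from GENCODE M21 (GRCm38), which matched 55141 of 55401 identifiers.

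Strain differences were fitted to the raw counts with edgeR 4.0.16 (R 4.3.3). Genes were filtered with filterByExpr (minimum count 10, minimum total 15), scaled by TMM and tested with robust dispersions, the quasi-likelihood test and Benjamini-Hochberg adjustment over all genes tested, without covariates. Standard errors were taken from the fold change and the F statistic. CPM values were scaled by TMM. Alternatives were DESeq2 1.42.0, limma 3.58.1 on log2(FPKM + 0.1) and log2(FPKM + 1), which understates changes of low genes, and those named under the results. The steps were tested on simulated data. In each library far more genes had 4 counts than 3 or 5 (1234, 377 and 254 in MRL/lpr replicate 1), and counts divided by 4 were an alternative, while whether low counts rest on fewer fragments was not tested.

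Named were the 10 receptor genes, list genes that passed the test and moved by 1 or more on the log2 scale (the most abundant where a list had fewer than 3), lectin genes within 500 kb and the 3 genes most correlated with Clec4a3 (minimum 10 counts in every library). Other named list genes, and BC064078, were picked after their values were seen. The receptor genes, lists and motifs were chosen with earlier results of these data known. Protein sequences were not used here, and other motifs searched are not reported here. Neuron, astrocyte, oligodendrocyte and endothelium markers were also listed: of 7, 6, 6 and 6 genes, 0, 0, 0 and 1 were higher and 2, 1, 2 and 0 were lower. Of all genes tested, 11.1% were higher and 9.06% were lower.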

Additional observations from a re-analysis of the deposited data

How the results depend on the processing

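Clec7a kept its direction and its call in all 17 alternatives. The number of receptor genes that were higher was 1, with a range from 1 to 2 over the fits that left out a library, and Clec5a was the addition without MRL/lpr replicate 3. The number that were lower was 1 with all libraries. It was 2 with library size only, with counts divided by 4, with a minimum count of 30 and with limma on FPKM + 0.1 or + 1, where Clec9a passed. It was 0 with no count filter and with the replicate block, and it ranged from 0 to 0 over the fits that left out a library, where Clec4a3 was lost (log2 fold change -0.34 and adjusted p = 0.0764 from edgeR with the replicate block). The number past the fold minimum was 2, Clec9a being added, with library size only, counts divided by 4, a minimum count of 30 and limma on FPKM + 0.1. Clec4a2, at -0.01, ranged from -0.071 to 0.036 over the fits that left out a library, turning positive without MRL/mpj replicate 2. Other C-type lectin genes that were lower numbered 4 with all libraries, 6 with library size only, 5 with DESeq2, a minimum count of 30 and counts divided by 4, 2 with the replicate block, and between 2 and 4 without 1 library. Pathway genes that were lower numbered 2 with library size only and with both limma fits, 0 with the replicate block, and between 0 and 2 without 1 library. Except where a setting by its construction tests other genes or fewer libraries, the cause was not tested. Libraries with the same replicate number did not deviate together, with correlations of -0.0409, -0.0202 and -0.0325 across genes, so the block has no basis beyond the number. It called 1754 genes higher and 1309 lower, against 2178 and 1772 without it. Depth is a limit for genes such as Clec9a, with 9 to 54 counts per library, although it passed when counts were divided by 4.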

Other observations

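The genes whose log2 CPM followed Clec4a3, the receptor gene with the highest mean FPKM in MRL/mpj and over the 6 libraries (Clec5a was higher in MRL/lpr and in CPM), most closely over the 6 libraries were Tbx18, Rpp14 and Paip2b, with Pearson's r of 0.999, 0.992 and 0.990 among 16371 genes searched. They had between 73 and 104, between 498 and 610, and between 793 and 907 counts in the MRL/lpr libraries. In the MRL/mpj libraries the ranges were 185 to 270, 805 to 1004 and 1067 to 1165 counts. The 6 points share library and depth and fall into 2 strains, so these values describe a pattern and carry no test.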
